A study of Homo sapiens with 6 samples.

Results

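The genes described here are 10 core proteins of matrix and secreted proteoglycans: HSPG2, AGRN, LUM, DCN, BGN, VCAN, SRGN, CD44, FMOD and PRELP. They were taken by name, through probe sets that carry exactly 1 gene symbol, which gave 43 probe sets, out of 41091 such probe sets and 19775 genes on the array. The choice of genes was made with earlier results of these data known. Gene expression was measured on 6 Affymetrix arrays of total RNA from Caco-2, an established cell line from a human colorectal adenocarcinoma whose cells grow as a sheet with features of small intestinal enterocytes. In 3 arrays the cells carried a small interfering RNA (siRNA) against SDC1, the gene of the epithelial proteoglycan syndecan-1, and in 3 they carried a negative control siRNA. Both groups were transfected, and all arrays come from this 1 line. The sources used here give neither the siRNA dose nor the time after transfection. Replicates are called independent, but no source names separate cultures, and the p-values therefore reflect the scatter among these arrays alone, which could be technical.

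Proteoglycans are proteins that carry long sulfated sugar chains. Perlecan (HSPG2) and agrin (AGRN) carry heparan sulfate and sit in basement membranes, where they bind laminin and growth factors. Lumican (LUM), decorin (DCN), biglycan (BGN), fibromodulin (FMOD) and PRELP are small leucine-rich proteins that bind collagen, and connective tissue cells are the usual source of most of them. Versican (VCAN) carries chondroitin sulfate and binds hyaluronan, serglycin (SRGN) packs the secretory granules of blood cells, and CD44 is the cell-surface receptor for hyaluronan. CD44 spans the membrane and carries long sulfated sugar chains on only part of its molecules, so it is a matrix-binding core and not a matrix component.

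Values are log2 signals relative to the median of the 6 arrays for each probe set, which was 0 in 54675 of 54675 probe sets (tolerance 1e-06). Such values show how the groups differ and hold no level. A rough brightness class was read from the storage steps of the numbers, as log2 8 to 16, 4 to 8 or below 4. It describes the signal of a probe set, which depends on the probes as well as on the transcript. Of the 43 probe sets, 0 were in the brightest class, 20 (46.5%) were at 4 to 8 and 23 (53.5%) were below 4. Over all 54613 probe sets these shares were 17.2%, 45.2% and 37.6%. Of 11 measured intestinal epithelial marker genes, 6 had a probe set in the brightest class (EPCAM, CDH1, KRT8, KRT18, KRT19 and CDX1). VIL1, CDX2 and LGALS4 were at 4 to 8, and KRT20 and CDH17 were below 4. Of 7 fibroblast markers, COL1A1 was in the brightest class, PDGFRA, PDGFRB, THY1 and COL3A1 were at 4 to 8, and FAP and POSTN were below 4. Of 4 measured blood cell markers, CD3E, CD14 and ITGAM were at 4 to 8 and PTPRC was below 4. Of the 17 epithelial probe sets, 0 had an adjusted p under 0.05 and 0 an unadjusted p under 0.05 (limma), with a median difference of 0.06. In bulk RNA, fewer cells of a type and less RNA per cell cannot be told apart.

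The siRNA target was lower in every SDC1 siRNA array. The SDC1 probe set 201287_s_at was at -0.51, -0.62 and -0.34 in the SDC1 siRNA arrays and at 0.38, 0.34 and 0.36 in the control arrays. Its difference was -0.85 ± 0.09 (log2, standard error, n = 3 each) with a 95% interval from -1.07 to -0.64, and its limma adjusted p was 0.121. The other probe set, 201286_at, was at -0.83 ± 0.09. These are signals 1.81-fold and 1.78-fold lower, so the measured SDC1 signal was lowered in part and not lost. Tested singly, neither probe set of the target passed an adjusted p of 0.05, and 0 of all 54613 probe sets did (lowest limma adjusted p = 0.0502). All exchanges of the 6 arrays between the groups (exact permutation test, two-sided) gave p = 0.1 for both probe sets, and 3 arrays against 3 cannot go lower.

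None of the 10 proteoglycan cores changed past the threshold with SDC1 siRNA. Of their 43 probe sets, 0 passed a limma adjusted p of 0.05 (background 0% of all probe sets), and the lowest adjusted p was 0.448, for LUM. At an unadjusted p under 0.05 there were 3 (6.98%), against 8.33% of all probe sets. They were 1 lower probe set, of LUM (background 4.15%), and 2 higher ones, of PRELP and CD44 (background 4.18%). The groups did not overlap in 4 probe sets (9.3%), against 14.5% of all probe sets: 3 were higher, of PRELP, CD44 and DCN (background 7.06%), and 1 was lower, of LUM (background 7.42%). Both shares of the proteoglycan cores were below those over all probe sets, with no test of that difference. The median difference was 0.03 for the 43 and 0.00 for all probe sets, and the median absolute difference was 0.06 and 0.09. Above 0 were 26 (60.5%), against 50.2% of all. With probe sets combined into genes, 0 of the 10 passed an adjusted p of 0.05, whether all probe sets of a gene were averaged (0.0152% of 19775 genes passed) or only those of its brightest class (0.0253%).

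**Figure D1:**
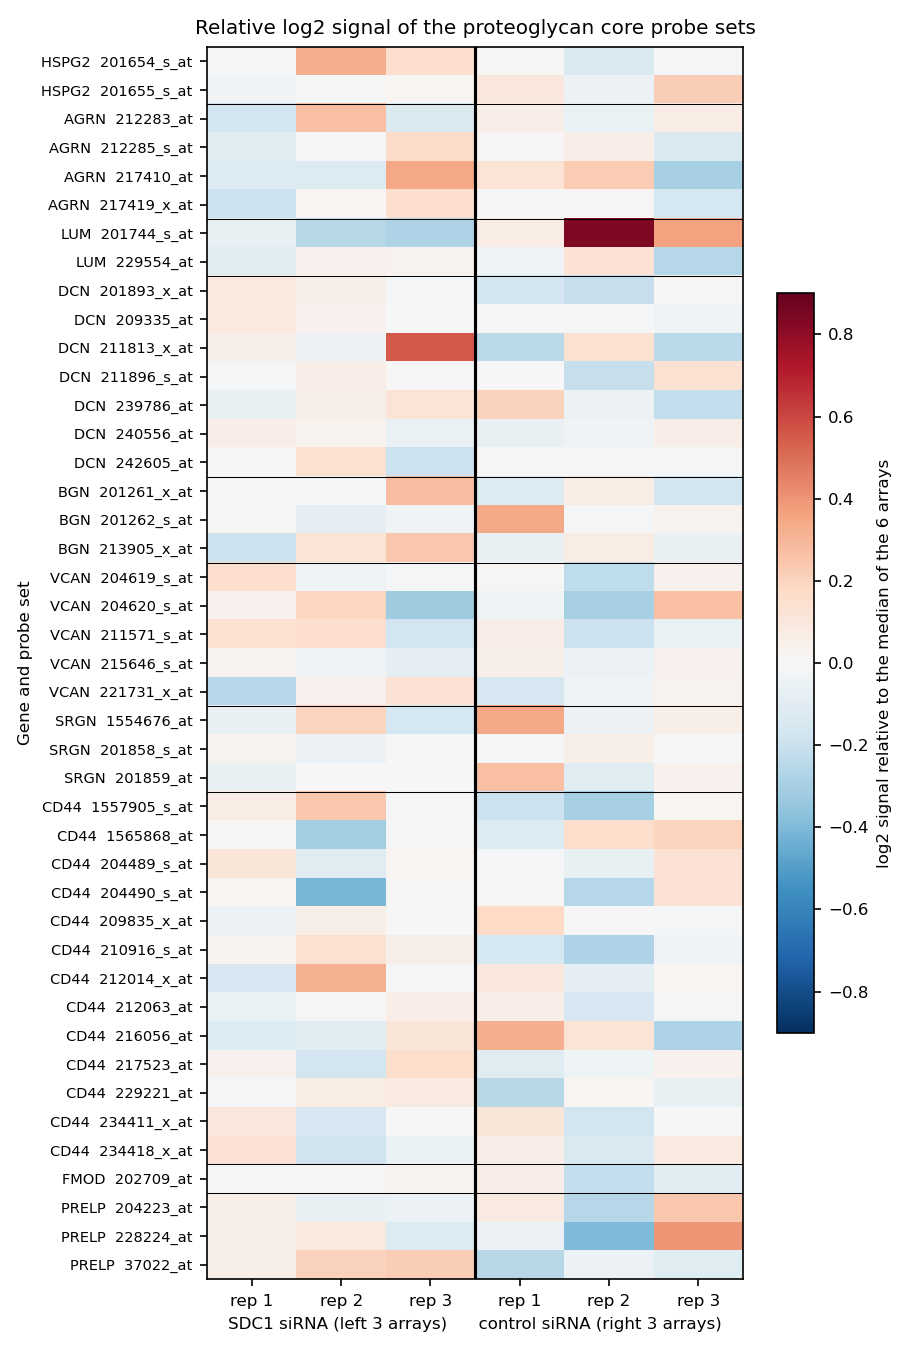
Relative log2 signal of the 43 probe sets of the 10 proteoglycan cores (rows) in the 3 SDC1 siRNA arrays and the 3 control siRNA arrays (columns); red is above and blue below the median of the 6 arrays. The strongest colour is LUM 201744_s_at in control replicate 2 (0.84), and most rows show no split between the left and right columns.

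In 41 of 43 probe sets the 95% interval of the difference lay within a 1.5-fold change in either direction (0.58 on the log2 scale), and the exceptions were LUM 201744_s_at and DCN 211813_x_at. These were 18 of the 20 probe sets at 4 to 8 and 23 of the 23 below 4, where a signal near background can understate a change of the transcript, so that the interval does not bound it. The standard errors of the differences ran from 0.08 to 0.18 with a median of 0.11. In 42 of 43 probe sets the range of values within 1 of the groups was larger than the difference between the group means. Control replicate 2 was the array farthest from 0 in 12 probe sets, and the other arrays in 3 to 8 each. Without control replicate 2, 3 probe sets had an unadjusted p under 0.05, against 8.28% of all probe sets; without control replicate 3 there were 5, from LUM, PRELP, DCN and CD44 (2), or 11.6% of the 43 against 9.99% of all probe sets.

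**Figure D2:**
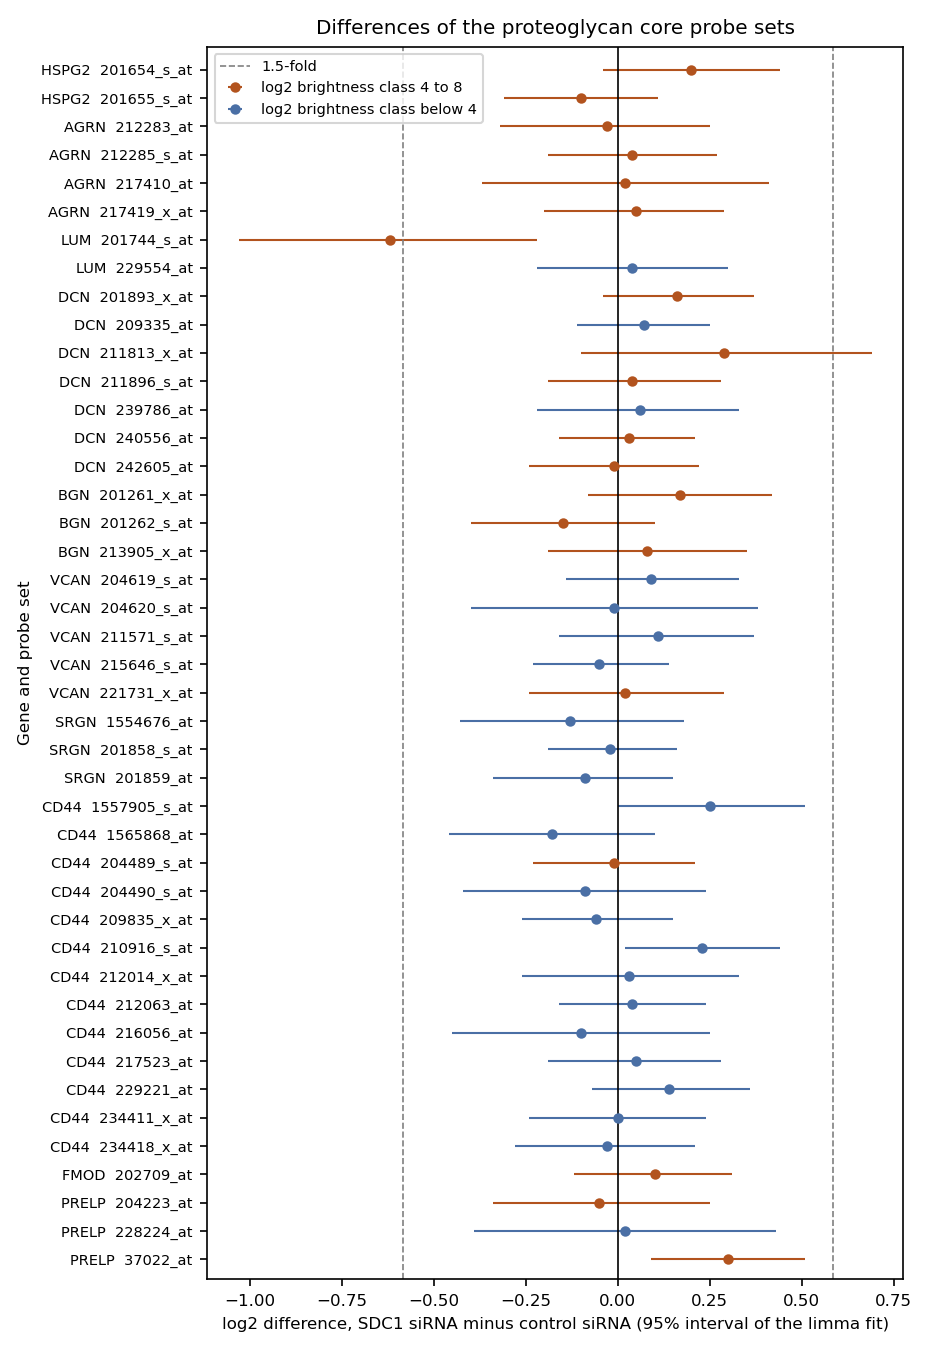
Log2 difference, SDC1 siRNA minus control siRNA, for each of the 43 probe sets (points) with its 95% interval (bars), coloured by brightness class; dashed lines mark 1.5-fold. LUM 201744_s_at stands at -0.62, and the other 42 points lie between -0.18 and 0.30.

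Perlecan and agrin, the basement membrane heparan sulfate cores, showed no difference that passed the test. The HSPG2 probe set 201654_s_at was at -0.01, 0.33 and 0.15 in the SDC1 siRNA arrays and at 0.01, -0.13 and -0.01 in the control arrays. HSPG2 201655_s_at was at -0.03, -0.02 and 0.02 in the SDC1 siRNA arrays and at 0.10, -0.05 and 0.22 in the control arrays. The groups overlapped in both probe sets, and the differences pointed opposite ways, at 0.20 ± 0.10 (limma adjusted p = 0.653) and -0.10 ± 0.09 (adjusted p = 0.817). Set against each other within each array, the 2 probe sets differed in their response by 0.30 ± 0.12 (log2, 95% interval 0.04 to 0.56). This contrast had an unadjusted p of 0.0278 and did not pass after adjustment over 31839 such contrasts (limma adjusted p = 0.774). Averaged over both, HSPG2 was at 0.05 ± 0.08.

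The 4 AGRN probe sets, all in the class of 4 to 8, had differences from -0.03 to 0.05. Their 95% intervals together spanned -0.37 to 0.41. AGRN 217410_at had the widest scatter, with -0.12, -0.12 and 0.35 in the SDC1 siRNA arrays and 0.12, 0.23 and -0.30 in the control arrays. SDC1 siRNA replicate 3 was the highest and control replicate 3 the lowest array in this probe set and in 212285_s_at. In 217419_x_at SDC1 siRNA replicate 3 was again the highest, at 0.15, but SDC1 siRNA replicate 1 was the lowest, at -0.19. AGRN thus varied between replicates of a group by more than between the groups.

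Lumican, a collagen-binding protein that carries keratan sulfate in some tissues, had the largest difference of the 43 probe sets, in 1 of its 2 probe sets. LUM 201744_s_at was at -0.07, -0.25 and -0.28 in the SDC1 siRNA arrays and at 0.07, 0.84 and 0.36 in the control arrays. All SDC1 siRNA arrays lay below all control arrays, but the control arrays themselves were spread over a wider range than the gap between the groups. The means were -0.20 ± 0.11 with SDC1 siRNA and 0.42 ± 0.39 with control siRNA (SD, n = 3 each). The difference was -0.62 ± 0.18 (log2, standard error; 1.54-fold lower) with a 95% interval from -1.03 to -0.22. It did not pass over all probe sets (limma adjusted p = 0.448, unadjusted p = 0.0069), and the exact permutation test gave p = 0.1. A difference of at least 1.5-fold was seen in 0.145% of all probe sets.

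The dim probe set of LUM did not share this pattern. LUM 229554_at, in the class below 4, was at -0.11, 0.04 and 0.03 in the SDC1 siRNA arrays and at -0.03, 0.13 and -0.26 in the control arrays. The groups overlapped, and the difference was 0.04 ± 0.11, with a 95% interval from -0.22 to 0.30 (adjusted p = 0.949). Within each array, 201744_s_at minus 229554_at differed between the groups by -0.67 ± 0.17 (95% interval -1.06 to -0.28). That contrast had an unadjusted p of 0.0038 and a limma adjusted p of 0.748, so the disagreement of the 2 probe sets did not pass either. Since the genes were chosen with earlier results of these data known, the unadjusted p-values of LUM are not independent support. At an unadjusted p under 0.05, 4 of the 42 contrasts of the proteoglycan cores stood out, the pairs of LUM and HSPG2 counted from both sides, against 6.27% of all such contrasts, and 0 passed after adjustment.

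The size of the LUM difference rested partly on 1 array. Without control replicate 2, 201744_s_at was at -0.42 ± 0.12 (limma adjusted p = 0.525), and without control replicate 1 it was at -0.80 ± 0.15 (adjusted p = 0.56). With array weights, which gave control replicate 2 the lowest weight (0.564), it was at -0.49 ± 0.16. Among 19775 genes, LUM was at -0.29 ± 0.12 when both probe sets were averaged (limma adjusted p = 0.453) and at -0.62 ± 0.17 by the brighter one alone (adjusted p = 0.273). The 23 probe sets of 7 fibroblast marker genes, cells that typically express lumican, had a median difference of -0.02. Their mean per array ran from -0.01 to 0.00 in the SDC1 siRNA arrays and from -0.01 to 0.01 in the control arrays. Of these 23 probe sets, 3 had an unadjusted p under 0.05 (limma), against 8.33% of all probe sets. The part of the fibroblast markers in the LUM value was not tested.

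**Figure D3:**
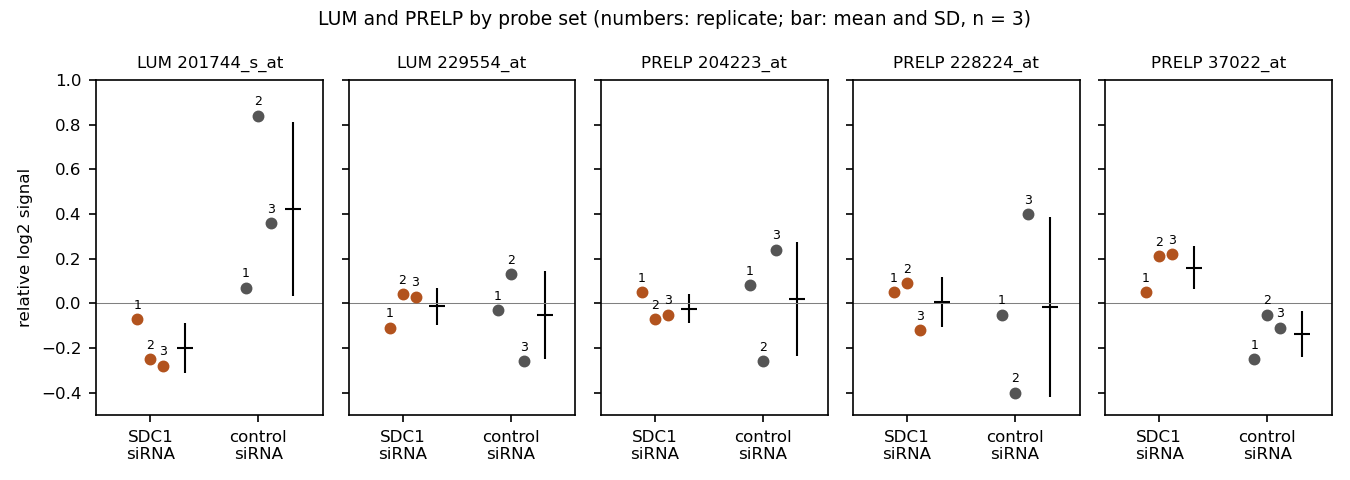
Relative log2 signal of the LUM and PRELP probe sets in each array (points, numbered by replicate), with SDC1 siRNA left and control siRNA right in each panel; the bars give the mean and SD (n = 3). The groups are separate in LUM 201744_s_at and PRELP 37022_at and overlap in the other 3 probe sets.

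PRELP, which anchors basement membranes to collagen, had the second lowest p among the 10 genes, again in 1 probe set. PRELP 37022_at was at 0.05, 0.21 and 0.22 in the SDC1 siRNA arrays and at -0.25, -0.05 and -0.11 in the control arrays. All SDC1 siRNA arrays lay above all control arrays. The difference was 0.30 ± 0.09 (log2; 1.23-fold, 95% interval 0.09 to 0.51, limma adjusted p = 0.479, unadjusted p = 0.0116). The difference of 37022_at was 0.24 to 0.35 when any 1 array was left out.

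The other PRELP probe sets gave no such difference. PRELP 204223_at was at -0.05 ± 0.13 and the dim 228224_at at 0.02 ± 0.18, with control replicate 2 the lowest array (-0.26 and -0.40) and control replicate 3 the highest (0.24 and 0.40) in both. PRELP 37022_at against the other 2 differed by 0.31 ± 0.18 (limma adjusted p = 0.833). FMOD, which regulates collagen fibril assembly and lies next to PRELP in the RefSeq gene order, had 1 probe set. FMOD 202709_at was at -0.01, 0.01 and 0.03 in the SDC1 siRNA arrays and at 0.06, -0.22 and -0.10 in the control arrays. These groups overlapped, and the difference was 0.10 ± 0.09 (adjusted p = 0.828), or 0.03 without control replicate 2.

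Decorin, which binds collagen and TGF-beta and is the gene next to LUM in the RefSeq order, was measured by 7 probe sets. Of these, 6 were above 0 and 1 was below, from -0.01 to 0.29, and 0 passed. The largest value was that of DCN 211813_x_at, which was at 0.05, -0.05 and 0.55 in the SDC1 siRNA arrays and at -0.24, 0.14 and -0.24 in the control arrays. Its difference of 0.29 ± 0.17 (95% interval -0.10 to 0.69, limma adjusted p = 0.696) came largely from SDC1 siRNA replicate 3 and was 0.11 without it. DCN 201893_x_at was at 0.09, 0.05 and -0.01 in the SDC1 siRNA arrays and at -0.17, -0.21 and 0.01 in the control arrays, and overlapped only through replicate 3 of each group (difference 0.16 ± 0.09). DCN 209335_at separated the groups by a gap that rounds to 0.00, with a mean difference of 0.07 ± 0.08 (adjusted p = 0.849). The mean over the 7 probe sets was 0.09 ± 0.06 (95% interval -0.04 to 0.23, adjusted p = 0.645 over genes), against -0.29 for its neighbour LUM, whose difference did not pass either.

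Biglycan, the close relative of decorin, was measured by 3 probe sets in the class of 4 to 8. BGN 201261_x_at was at 0.01, -0.01 and 0.28 in the SDC1 siRNA arrays and at -0.12, 0.07 and -0.17 in the control arrays, a difference of 0.17 ± 0.11. BGN 201262_s_at was at 0.01, -0.08 and -0.03 in the SDC1 siRNA arrays and at 0.34, -0.01 and 0.03 in the control arrays, a difference of -0.15 ± 0.11. The groups overlapped in each, and the signs were opposite. BGN 201261_x_at was at 0.08 without SDC1 siRNA replicate 3, and 201262_s_at at -0.04 without control replicate 1. BGN 213905_x_at was at 0.08 ± 0.12, and the mean of the 3 was 0.03 ± 0.08 (adjusted p = 0.917 over genes).

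Among the cores that bind hyaluronan, the 5 VCAN probe sets had differences from -0.05 to 0.11, with 95% intervals that together spanned -0.40 to 0.38. The lowest adjusted p of a VCAN probe set was 0.849, and 4 of the 5 were in the class below 4. VCAN 204620_s_at scattered most, at 0.04, 0.19 and -0.32 in the SDC1 siRNA arrays and at -0.04, -0.30 and 0.27 in the control arrays. Its group means were -0.03 and -0.02, so the scatter was within the groups.

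CD44 was measured by 13 probe sets, of which 7 were above 0 and 6 below, with a median difference of 0.00. The extremes were 0.25 ± 0.11 for 1557905_s_at and -0.18 ± 0.12 for 1565868_at. CD44 210916_s_at was at 0.03, 0.14 and 0.05 in the SDC1 siRNA arrays and at -0.16, -0.28 and -0.03 in the control arrays. All SDC1 siRNA arrays lay above all control arrays there, by a mean of 0.23 ± 0.09 (95% interval 0.02 to 0.44, limma adjusted p = 0.571, unadjusted p = 0.0366). CD44 1557905_s_at showed a like order, with 0.07, 0.24 and -0.02 in the SDC1 siRNA arrays and -0.19, -0.30 and 0.02 in the control arrays, and overlapped (unadjusted p = 0.0503).

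The CD44 probe set of the brighter class showed no such difference. CD44 204489_s_at, the only one at 4 to 8, was at 0.11, -0.11 and 0.02 in the SDC1 siRNA arrays and at -0.02, -0.07 and 0.13 in the control arrays. It gave a difference of -0.01 ± 0.10, with a 95% interval from -0.23 to 0.21. The mean over all 13 probe sets was 0.02 ± 0.07 (95% interval -0.13 to 0.17). Of the 13 contrasts of a CD44 probe set against the rest of the gene, 0 passed after adjustment. CD44 is spliced into many forms, and the probe sets were not assigned to forms here.

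Serglycin, the granule proteoglycan, was measured by 3 probe sets, all in the class below 4. Their differences were -0.13 ± 0.13, -0.02 ± 0.08 and -0.09 ± 0.11, and the lowest adjusted p was 0.84. SRGN 1554676_at was at -0.07, 0.20 and -0.16 in the SDC1 siRNA arrays and at 0.35, -0.05 and 0.05 in the control arrays. SRGN 201859_at was at -0.07, 0.00 and 0.00 in the SDC1 siRNA arrays and at 0.27, -0.11 and 0.04 in the control arrays. Control replicate 1 was the highest array in both, and without it their differences were -0.01 and 0.01.

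The genes that work with these cores were counted in 8 lists, and 0 of their probe sets passed a limma adjusted p of 0.05 (background 0%). The counts that follow are of an unadjusted p under 0.05, which 8.33% of all probe sets reached. Of all probe sets, 4.18% reached it higher and 4.15% lower with SDC1 siRNA. The counts are of probe sets, and 1 gene can supply several. Genes named from a list are those with its lowest p in any 1 probe set, and the other probe sets of each are given beside it. Among 18 measured genes of the hyaluronan and CD44 axis, 5 of 49 probe sets (10.2%) reached it, all higher, with a median difference of -0.01. They included RDX, the radixin that ties CD44 to actin, at 0.33 ± 0.10 in the dim probe set 244739_at and at 0.11 to 0.23 in its other 3. RDX 212397_at and 212398_at, both of the brightest class and at 0.23, also reached it (limma unadjusted p = 0.0228 and 0.0454). The 5 are therefore not 5 genes. The hyaluronan synthase HAS3 was at 0.30 ± 0.11 in 223541_at and at -0.12 ± 0.15 in its other probe set, 1552980_at. Within arrays these HAS3 probe sets differed by 0.42 ± 0.11 (limma adjusted p = 0.748, unadjusted p = 0.00493). Among 15 basement membrane partners of perlecan and agrin, 4 of 28 reached it, 2 higher and 2 lower. The laminin chain LAMA1 was at -0.39 ± 0.11 in 222346_at, of the class below 4, and at -0.01 ± 0.09 in the brighter 227048_at. Nidogen-2, NID2, was at 0.30 ± 0.10 in its single probe set, also below 4.

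Around the small leucine-rich cores, 7 of 43 probe sets of 12 fibrillar collagen and matrix processing genes (16.3%) reached an unadjusted p under 0.05, 3 higher and 4 lower. Among these 12, COL1A1 and COL3A1 are also in the fibroblast marker list. COL1A2 was at 0.37 ± 0.09 in 202404_s_at (limma adjusted p = 0.394), 0.36 ± 0.09 in 202403_s_at and 0.12 ± 0.16 in 229218_at. COL5A2 was at -0.32 ± 0.10 in 221730_at and -0.23 ± 0.08 in 221729_at. Both COL5A2 probe sets and COL1A2 202404_s_at and 202403_s_at reached the unadjusted p, so the 7 are not 7 genes. Of 34 probe sets of 10 receptors and ligands bound by decorin, biglycan or lumican, 5 (14.7%) reached it, all higher, with a median of 0.08. ITGA2, a collagen receptor chain that decorin also binds, was at 0.69 ± 0.11 in 227314_at, with 0.19, 0.25 and 0.38 in the SDC1 siRNA arrays and -0.59, -0.19 and -0.45 in the control arrays. Its limma adjusted p was 0.297, and ITGA2 205032_at was at 0.30 ± 0.13. TLR4, an innate receptor for biglycan, was at 0.38 ± 0.08 in 1552798_a_at (adjusted p = 0.376) and from -0.10 to 0.34 in its other 3 probe sets, all 4 being in the class below 4. TLR4 221060_s_at also reached the unadjusted p, as did ITGA2 205032_at, so the 5 of this list are not 5 genes.

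Other proteoglycan cores gave few such values. Of 17 probe sets of 11 other small leucine-rich proteins, 0 reached an unadjusted p under 0.05, with ECM2 at -0.20 ± 0.12 in 206101_at and OMD, osteomodulin, at 0.12 ± 0.10 in 205908_s_at. Their other probe sets pointed the opposite way, at 0.05 ± 0.10 for ECM2 1568779_a_at and -0.09 ± 0.11 for OMD 205907_s_at. Of 26 probe sets of 13 other lecticans, testicans, secreted cores and link proteins, 2 (7.69%) did: ACAN, aggrecan, at 0.40 ± 0.08 in the dim 1554950_at, and the link protein HAPLN4 at 0.32 ± 0.11 in its single probe set. The 3 brighter ACAN probe sets were at 0.03 to 0.17. Of 15 probe sets of 6 versican-cleaving ADAMTS proteases 0 did, with ADAMTS5 at 0.15 ± 0.10 in 219935_at (-0.07 to 0.09 in its other 3) and ADAMTS20 at 0.14 ± 0.10 in 1553409_at (0.11 in the other).

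The list of 10 genes whose products serglycin binds had the highest share of the 8, with 6 of 16 probe sets (37.5%) at an unadjusted p under 0.05, all higher, and a median difference of 0.20. Of all probe sets 8.33% reached that p, 4.18% higher. The lists were chosen with earlier results of these data known, so this share is not an independent result, and it was not tested. Without control replicate 2 the count was 4 in this list, 7 for the hyaluronan and CD44 axis and 1 to 5 in the other lists, and 0 probe sets passed the adjusted p in any of them. The pore-forming protein gene PRF1 was in 1553681_a_at at 0.23, 0.13 and 0.40 in the SDC1 siRNA arrays and at -0.21, -0.52 and -0.13 in the control arrays, a difference of 0.54 ± 0.12 (limma adjusted p = 0.388), and its other probe set was at 0.26 ± 0.09. The chemokine CCL2 was at 0.11, 0.22 and 0.18 in the SDC1 siRNA arrays and at -0.27, -0.11 and -0.48 in the control arrays, a difference of 0.46 ± 0.11 (adjusted p = 0.403). In both, all SDC1 siRNA arrays lay above all control arrays. Both PRF1 probe sets are among the 6, so these are not 6 genes. Of the 6 probe sets, 2 were in the class below 4, and SRGN itself gave differences from -0.13 to -0.02. The 9 probe sets of 4 measured blood cell markers had a mean per array from -0.07 to 0.10 with SDC1 siRNA and from -0.06 to 0.01 with control siRNA. Of these 9, 1 had an unadjusted p under 0.05 (limma), against 8.33% of all probe sets. The part of the blood cell markers in the values of the serglycin list was not tested.

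**Figure D4:**
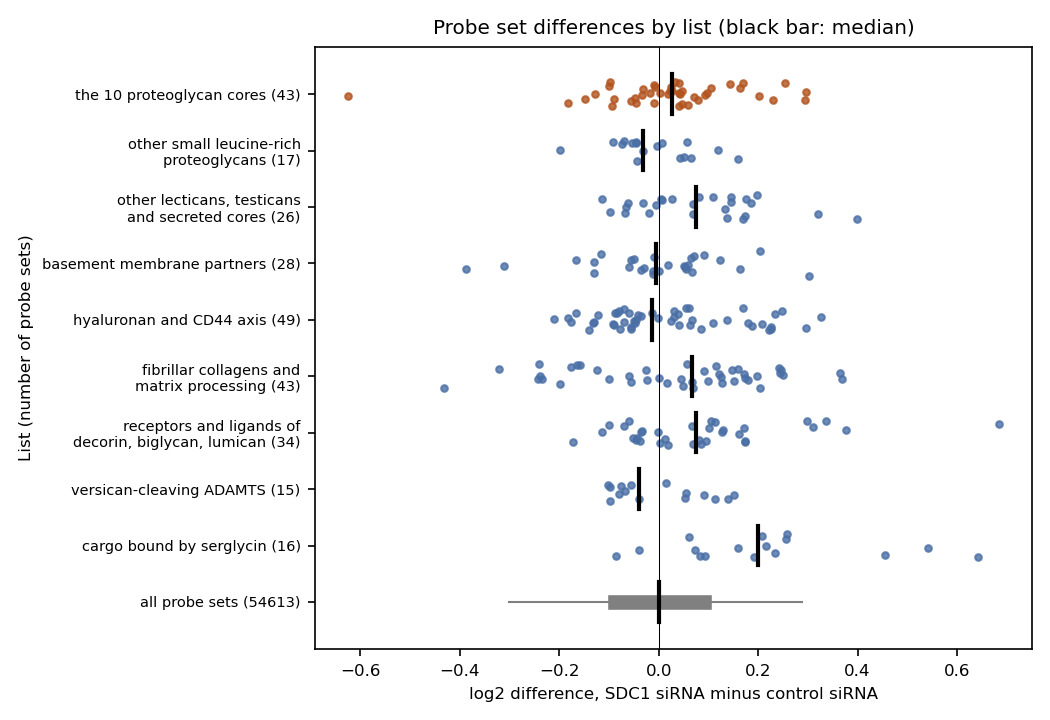
Log2 difference, SDC1 siRNA minus control siRNA, of each probe set (points) in the 10 proteoglycan cores and the 8 lists of genes that work with them; black bars are medians, and the bottom row gives the middle 50% (thick) and 95% (thin) of all 54613 probe sets. The medians run from -0.04 for the versican-cleaving proteases to 0.20 for the serglycin cargo.

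The probe sets most like LUM 201744_s_at over the 6 arrays were picked by that likeness, as a description. The LUM value farthest from 0 was that of control replicate 2 (0.84). With 6 points and 41089 probe sets compared, high correlations do not show a shared behaviour, and none was tested. The highest Pearson correlations over the 6 arrays, among 41089 probe sets of other genes, were 0.997 for PLPP1 210946_at, 0.993 for ZNF738 241826_x_at and 0.992 for POLDIP3 212100_s_at. In all, 137 probe sets exceeded 0.95. The POLDIP3 probe set differed between the groups by only -0.03 ± 0.08.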

How the data were processed

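The 6 deposited columns are log2 values made by the authors with RMA, per the submitters' processing notes (version and software not given in the sources used here). RMA removes background, puts arrays on a common distribution and combines the probes of each set. Each probe set had then been centred on its median over the 6 arrays, as the values show, which removes levels. Brightness classes come from the steps in which single-precision numbers are stored, and a probe set whose values cross a bound falls into the lower class. Control probe sets (62) were left out. Of the table's probe sets, 1801 carried several symbols and 11721 none, and none of these was named. Symbols were updated through Entrez identifiers to RefSeq (99.9% matched).

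Each of 54613 probe sets was fitted on all 6 arrays by lmFit and eBayes of limma (version 3.58.1, R 4.3.3), the group being the only term, with Benjamini-Hochberg adjustment over all of them. Differences are SDC1 siRNA minus control siRNA, and ± after a difference is a moderated standard error. A second fit took each probe set minus the mean of the others of its gene. Both were run on simulated data with independent normal noise, where the check was that added differences were recovered in their mean size. That check does not bear on how often a real difference would pass the threshold. All members were named, with up to 2 genes per list by lowest p and the 3 probe sets most like LUM 201744_s_at. The members and lists were chosen with earlier results of these data known. No 2 arrays were copies: at most 190 of 54613 values were equal. Any 2 arrays differed by a median of 0.11 to 0.17 in absolute value. The number of arrays limits the precision. The sources used here give no batch. Symbols absent from single-symbol probe sets, such as DAG1, HAS1 and ESRP2, were not analysed here. CD14 stands in a receptor list and the blood cell markers.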

Additional observations from a re-analysis of the deposited data

How the results depend on the processing

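The count of proteoglycan core probe sets past an adjusted p of 0.05 was 0 as reported and in every alternative run: array weights, robust eBayes, a repeated quantile normalization, centring of arrays on medians, the replicate block, any 1 array left out, brighter probe sets, no _x_at and _s_at probe sets, an adjusted p of 0.01, a fold of 1.5 and both gene-level fits. The values gave no sign that replicate numbers pair the arrays (correlations of deviations for same-numbered arrays 0.06, -0.19 and 0.06). Not every array correlated best with its own number. The deviations were taken from means of 3 arrays, so such correlations cannot settle whether arrays were handled in pairs. With the replicate block, LUM 201744_s_at stayed at -0.62 (limma adjusted p = 0.603), and 2 probe sets (4.65%) had an unadjusted p under 0.05, against 7.26% of all. That count was 2 to 5 with an array left out (4.65% to 11.6%, against 5.64% to 9.99% of all), 4 with array weights (9.3%, against 10.3%) and 1 of the 18 left without _x_at and _s_at probe sets (5.56%, against 8.0%). Over all features the count past the threshold was 3 with array weights, 2 among brighter probe sets, 2 without _x_at and _s_at probe sets, and 3 and 5 genes by the mean and the brightest class. Small differences changed sign. With array weights VCAN 204620_s_at was at 0.02, AGRN 217410_at at -0.04, CD44 234411_x_at at -0.05 (-0.02 with quantile normalization again), DCN 239786_at at -0.02 and DCN 242605_at at 0.01; CD44 by its brightest class was at -0.01. The cause was not tested. With 1 array left out, 24 of the 43 changed sign at least once. The ranges for AGRN were 212283_at -0.17 to 0.05, 212285_s_at -0.03 to 0.10, 217410_at -0.14 to 0.13, 217419_x_at -0.03 to 0.14. The range for BGN was 213905_x_at -0.01 to 0.20. The ranges for CD44 were 204489_s_at -0.06 to 0.05, 204490_s_at -0.20 to 0.05, 209835_x_at -0.09 to 0.01, 212014_x_at -0.10 to 0.13, 212063_at -0.02 to 0.09, 216056_at -0.27 to 0.04, 217523_at -0.03 to 0.14, 234411_x_at -0.07 to 0.07, 234418_x_at -0.11 to 0.04. The ranges for DCN were 211896_s_at -0.05 to 0.12, 239786_at -0.04 to 0.17, 242605_at -0.09 to 0.08. The range for LUM was 229554_at -0.06 to 0.13. The ranges for PRELP were 204223_at -0.19 to 0.06, 228224_at -0.17 to 0.23. The ranges for SRGN were 201858_s_at -0.03 to 0.00, 201859_at -0.18 to 0.01. The ranges for VCAN were 204620_s_at -0.15 to 0.14, 221731_x_at -0.06 to 0.14.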
